A study of Rattus norvegicus with 48 samples.

Results

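The livers of 16 of the 48 rats of the series were compared, 8 control animals after 12 weeks of diet with 8 control animals after 4 weeks, to describe the net change of control liver over the whole study. The 16 animals were chosen by their labels alone. All were male Wistar rats (RjHan:WI), purchased at 6 weeks of age, and all received CSAA, the choline-supplemented L-amino acid-defined diet, with 12% of its energy from protein, 16% from fat and 72% from carbohydrate. Animals 101 to 108 were sampled at week 4 and animals 901 to 908 at week 12. Each animal was sampled once, so the 2 time points are different animals, and the age and the time on the diet differ together and cannot be told apart. The 8 CSAA animals of week 8 were used to place the values between the end points. The week 4 and week 12 animals of the CDAA diet, which is deficient in choline and was supplemented with 1% cholesterol (11% of the energy from protein, 31% from fat, 58% from carbohydrate), were used for a side by side comparison. Per the study's methods the animals were acclimatized in pairwise housing, but the labels do not say which animals shared a cage. The p-values therefore measure the spread between animals as if each were independent.

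Liver is built mostly of hepatocytes, which make the plasma proteins, metabolise lipids, sugars and foreign compounds and secrete bile, and which share the organ with cholangiocytes, endothelial cells, stellate cells and resident macrophages. Choline is needed for phosphatidylcholine and thereby for the export of triglycerides in lipoproteins, and a diet without it leads to fat accumulation in rat liver. A choline-supplemented diet of the same amino acid-defined type serves as its control. Young male rats still grow while they receive it, and the part of growth in the changes below was not tested. The genes are listed by Ensembl identifier without names. Values are therefore given for numbers of genes grouped by abundance and length and for 4 single identifiers, and the label of the tissue was not checked against marker genes. In RNA of whole liver, fewer cells of a type and less RNA per cell cannot be told apart.

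Sequencing depth, as reads assigned to genes in one animal, ran from 13619274 to 21246676 in the 8 livers of week 4 and from 15267445 to 21082594 in the 8 of week 12. The difference of the means was within the spread between animals (two-sided exact permutation test over 12870 splits, p = 0.586, Benjamini-Hochberg adjusted over 6 library measures 0.586). The lowest pair of animals of the 16 differed by a chi-square of 19.1 per gene, far above sampling noise, so that no library was counted as a repeat of another. CPM are the reads of a gene scaled to the same total of reads on genes in every animal. For log2 CPM the total was that of the genes tested, adjusted by TMM normalization. Pearson's r of log2 CPM had a median of 0.977 over the 28 pairs within week 4 and 0.976 over the 28 pairs within week 12. It was 0.964 over the 64 pairs between the weeks.

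In the principal component analysis of the 16 livers, PC1 held 24.5% of the variance and separated the weeks. The scores at week 4 ran from -36.8 to -0.0700 and those at week 12 from 20.7 to 31.7. Animal 102 had the score nearest to week 12 among the animals of week 4, and the other 7 lay at -16.2 or below. PC2 held 13% and was set by animal 908, with a score of 68.2 against -19.1 to 2.59 in the other animals of week 12 and -7.95 to 8.29 at week 4. The mean correlation of animal 908 with its group was 0.961, and that of the other 7 was 0.971 to 0.977. The counts of changed and of non-overlapping genes, the slope on length and the spread are therefore also given below without animal 908. The read shares, the positions of week 8, the classes of length and abundance and the genes shared with CDAA were taken with it only.

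**Figure D1:**
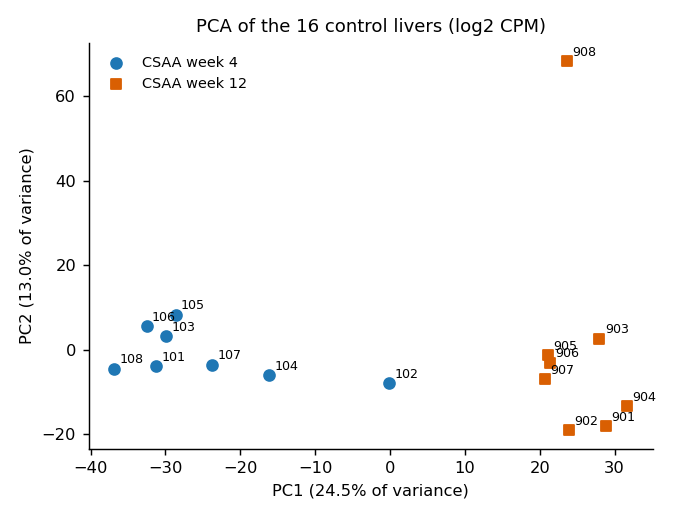
Scores of the 16 CSAA livers on the first and second principal component of log2 CPM, one point per animal, with the share of the variance on each axis. The weeks separate on the first component, with animal 102 of week 4 near 0, and animal 908 of week 12 stands alone at 68.2 on the second.

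Control liver changed moderately between weeks 4 and 12. Of 12756 genes tested, 342 (2.68%) changed, counted as changed when the adjusted p was below 0.01 and the log2 fold change at least 1 in size, with 171 higher (1.34%) and 171 lower (1.34%) at week 12 (edgeR's quasi-likelihood test, Benjamini-Hochberg adjustment). Most changes were small. In 75.7% of all genes the absolute log2 fold change was below 0.5, while 5011 genes (39.3%) passed an adjusted p of 0.05 without a fold limit, 2884 higher (22.6%) and 2127 lower (16.7%). The excess of higher genes turned with library size alone, to 2161 higher and 2472 lower, and with the 16 animals alone, to 1763 and 2018. The median log2 fold change was 1.26 among the genes that rose and -1.20 among those that fell, against 0.07 over all genes. A log2 fold change of at least 2 was reached by 24 genes that rose and 12 that fell, and one of at least 3 by 5 and 2. The limit on the fold cut through a continuous range, since of 3569 genes past an adjusted p of 0.01 the last inside had an absolute log2 fold change of 1.00211 and the first outside one of 0.999557. Tested against a log2 fold change of 1 in place of 0, 5 genes were higher and 5 lower.

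Individual animals moved these counts. Without animal 908, 152 genes were higher and 223 lower, so that genes that rose made up 40.5% of the changed genes in place of 50%. Without animal 102, 208 were higher and 222 lower. In 204 of the 342 genes, 91 higher and 113 lower, the call held whichever of the 16 animals was left out. Animal 102 had the lowest value of week 4 in 115 of the 171 genes that fell, against 23.4% of all genes tested, and its median log2 difference from the other animals of week 4 was -0.83 over the genes that fell and 0.06 over all genes. Over the genes that fell, this animal thus lay part of the way to week 12, since the median log2 change of the groups was -1.18. Animal 908 had the highest value of week 12 in 29.0% of all genes, in 52 of the genes that rose and in 57 of those that fell.

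The split between rising and falling genes also moved with the samples and scaling of the test. With the 16 animals alone, 108 genes were higher and 195 lower, and with the 24 CSAA animals alone 106 and 199. With library size in place of TMM normalization the counts were 128 and 214, and with quality weights in limma-voom 157 and 253. With a filter on the control groups of weeks 4 and 12 alone the counts were 133 and 160. With limma on log2(RPKM + 0.1) they were 88 and 192, and with a pseudocount of 1 they were 33 and 114. Genes that rose made up 22.4 to 45.4% of the changed genes in these settings, and 46.0% with limma-voom and 47.6% with DESeq2.

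With the length trend kept, the genes that fell were shorter than the typical gene and those that rose were longer. The median length was 873 bases among the genes that fell, 2896 among those that rose and 2255 over all genes tested, where length was derived from the ratio of CPM to RPKM. Of the 2552 shortest genes, up to 1349 bases, 128 fell and 17 rose. Of the 2551 longest genes, from 3821 bases, 2 fell and 55 rose. The median log2 fold change of all genes rose with length over 5 classes of nearly equal size, from -0.25 in the shortest over -0.03, 0.10 and 0.16 to 0.26 in the longest. After removal of each animal's trend, described below, these medians lay between 0.02 and 0.04, which the removal itself brings about.

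**Figure D2:**
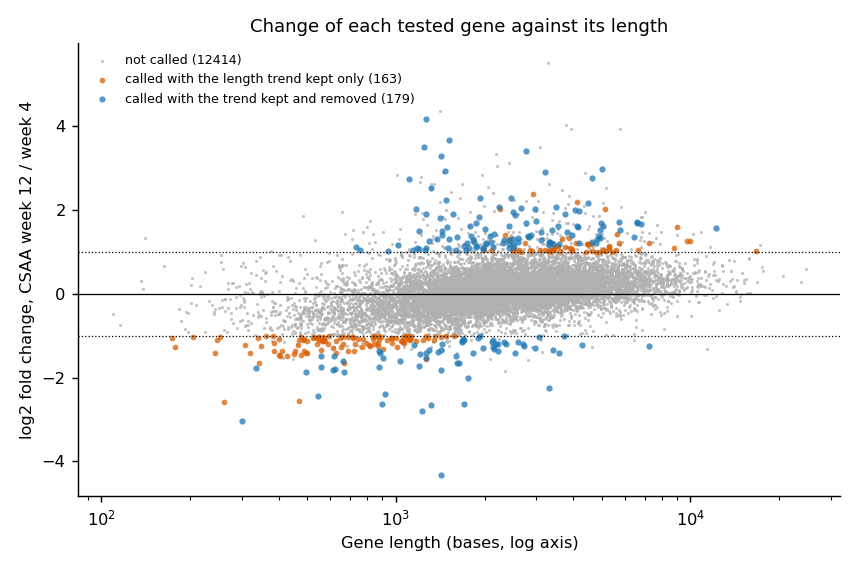
Log2 fold change of each of the 12756 genes tested (CSAA week 12 against week 4) against gene length in bases on a log axis, one point per gene, with dotted lines at a log2 fold change of 1 and -1. Grey points did not change, blue points are the 179 genes that changed with the length trend kept and removed, and orange points are the 163 that changed only with the trend kept, most of them short genes that fell.

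The slope of expression on length was measured in each library, as the change of log2 CPM, relative to the mean of all animals, for a factor of 10 in gene length. The slope was -0.61 ± 0.27 at week 4 and 0.0008 ± 0.28 at week 12 (SD, n = 8 each). The difference of 0.61 was larger than the spread between animals (two-sided exact permutation test, p = 0.00155, adjusted over 6 measures 0.00932), and it was 0.61 without animal 908 (p = 0.00233, adjusted 0.0140). The groups overlapped. At week 4, animals 102 and 104 had slopes of -0.12 and -0.34, and at week 12 animals 905 and 903 had slopes of -0.49 and -0.24. At week 8 the slope was -0.66 ± 0.19. The mean of week 8 was thus near that of week 4, and its difference from week 12 was not tested. On CDAA the mean slope went from -0.22 ± 0.27 to 0.77 ± 0.10 between weeks 4 and 12. Animal 504 of CSAA week 8, at -0.24, and animal 303 of CDAA week 4, at -0.83, lay apart from their groups. Whether the slope has its origin in the livers or in the libraries was not tested.

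**Figure D3:**
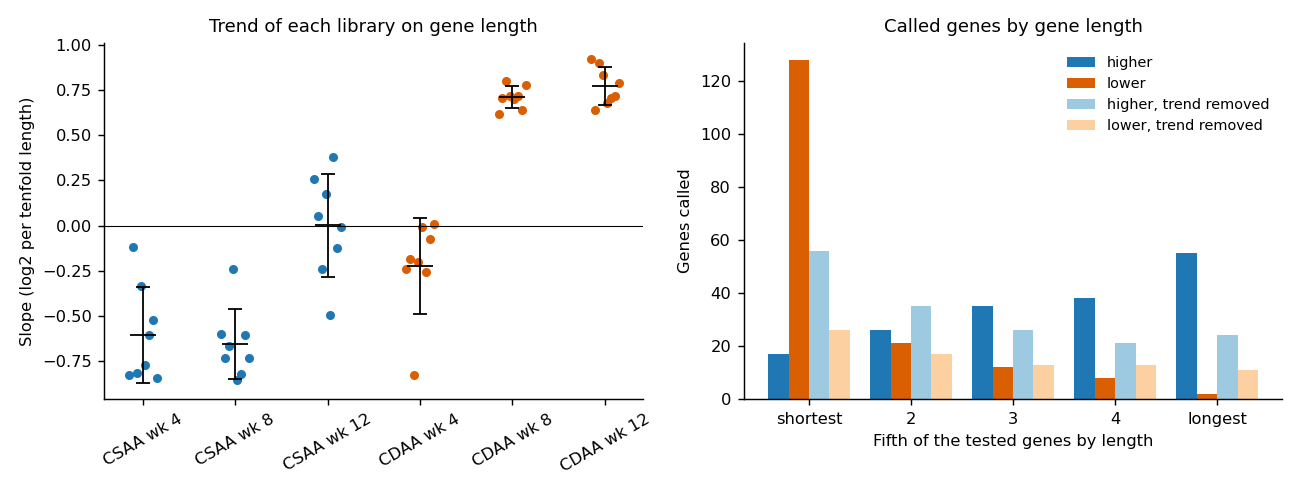
Left, slope of log2 CPM on log10 gene length in each library, one point per animal, by diet and week, with bars at the mean and SD of 8 animals. Right, number of genes that were higher or lower at week 12 on CSAA in 5 classes of gene length, dark bars with the trend kept and light bars with it removed, where the 128 lower genes of the shortest class become 26.

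With the length trend of each animal removed, 162 genes were higher (1.27%) and 80 lower (0.627%) at week 12, 242 in all (1.90%). Without a fold limit 2250 genes were higher (17.6%) and 2000 lower (15.7%). In simulated data with a length trend, 878 unchanged genes passed an adjusted p of 0.05. After its removal 9 did. Of the 342 genes, 179 changed with and without the trend, 114 higher and 65 lower, and 163 changed only with the trend in place, 57 higher and 106 lower. The 106 had a median length of 656 bases and the 57 one of 3965. A further 48 genes that rose and 15 that fell passed only after removal. Among the shortest genes, removal turned 17 higher and 128 lower into 56 higher and 26 lower. Among the longest it turned 55 higher and 2 lower into 24 and 11. The median lengths of the changed genes were then 1744 bases for those higher and 1792 for those lower, both below the 2255 of all genes. Without animal 908 the counts after removal were 148 higher and 121 lower, and genes that rose made up 55.02% of the changed genes in place of 66.9%. Without animal 102 they were 193 and 90.

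The genes that rose were of lower abundance than those that fell. The median of the mean CPM over the 16 animals was 4.13 among the genes that rose, 12.2 among those that fell and 10.6 over all genes. Among the genes that changed with and without the length trend the medians were 3.25 and 6.58, both below that of all genes. A mean of at least 100 CPM was held by 6 of the genes that rose and by 27 of those that fell, 24 of which were among the shortest genes. Of 993 genes between 100 CPM and the 118 most abundant genes, 6 rose and 24 fell, or 9 and 7 with the trend removed. Of 1651 genes under 1 CPM, 34 rose and 25 fell, or 42 and 17 with the trend removed. Genes of this class were tested because at least 1 of the 6 groups, CDAA included, reached 1 CPM, so these counts give a description only. Of 4570 genes between 1 and 10 CPM, 81 rose and 51 fell, or 76 and 28. Of 5424 genes between 10 and 100 CPM, 50 rose and 68 fell, or 34 and 27. Of the 118 most abundant genes, 0 rose and 3 fell, or 1 and 1.

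The share of all reads on the genes that fell was 1.98 ± 0.521% in the livers of week 4 and 2.19 ± 0.274% in those of week 8 (SD, n = 8 each). It had dropped to 0.829 ± 0.0807% in those of week 12. The lowest share of week 4 was 1.05%, in animal 102, and the highest 2.51%, and at week 12 the range was 0.745 to 0.977%. Both week 4 and week 12 chose these genes, so these 2 values are a description. The week 8 values were no part of the contrast, but they entered the filter and the shared estimate of the spread. The genes that rose went from 0.219 ± 0.0241% over 0.309 ± 0.0581% to 0.533 ± 0.0496% at the 3 time points. Their share of the reads was small throughout.

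The livers of week 8 were set between the end points. Of the 171 genes that rose, the week 8 mean lay between both end points in 146, beyond week 4 in 15 and beyond week 12 in 10, and it was nearer to week 4 in 108. Of the 171 that fell, the week 8 mean lay between them in 74 and above that of week 4 in 96, and it was nearer to week 4 in 146. The median change from week 4 to week 8 was 0.51 for the genes that rose and 0.06 for those that fell, and from week 8 to week 12 it was 0.81 and -1.25, on the log2 scale. In these medians the fall lay between weeks 8 and 12, and the rise was spread over both intervals. Among the 65 genes that fell with and without the length trend, the week 8 mean lay between the end points in 43 and above week 4 in 21, with medians of -0.29 and -1.11 for the 2 intervals. Among the 114 that rose both ways it lay between them in 99, with medians of 0.60 and 0.84. The mean slope on length moved in the same interval, from -0.66 to 0.0008, and 106 of the genes that fell did not pass after its removal.

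In their medians, the genes that changed were more variable between animals than the typical gene. Over all genes, the median SD of log2 CPM in the groups of weeks 4, 8 and 12 was 0.275, 0.247 and 0.298, the last being 0.288 without animal 908. For the genes that rose it was 0.537, 0.581 and 0.516, and for those that fell 0.506, 0.348 and 0.401. The genes that changed also differ from all genes in abundance and length, and the part of these in the spread was not tested.

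The CPM of the 8 animals of week 4 did not overlap those of week 12 in 670 genes (5.25% of all tested), 401 higher (3.14%) and 269 lower (2.11%). Of the changed genes, 48 that rose and 52 that fell did not overlap. Among those that changed with and without the length trend these were 31 and 22. Without animal 908 the 670 became 848 (6.65%), with 462 higher (3.62%) and 386 lower (3.03%), and the 31 and 22 became 34 and 33. The 4 identifiers described next were taken from the 53 genes that met this last condition, those with the largest changes. A larger change than that of the first was found in 3 further changed genes, whose animals overlapped between the weeks.

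ENSRNOG00000021027 rose most among these. Its level was 1.06, 2.92 and 16.3 CPM at week 4 (lowest, median and highest of 8 animals) and 29.5, 54.1 and 80.1 CPM at week 12. All animals of week 12 were above all of week 4, and the spread at week 4 was wide, with animals 101 and 103 at 10.5 and 16.3 CPM. The log2 fold change was 3.49 ± 0.44 (SE, edgeR, adjusted p = 2.01e-08) and 3.71 with the length trend removed. The mean at week 8 was 8.28 ± 8.44 CPM (SD, n = 8), with a range of 1.46 to 25.1 CPM below every animal of week 12.

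ENSRNOG00000042717 was at 0, 0.163 and 0.444 CPM at week 4, with 0 to 9 reads per animal, and at 0.854, 1.37 and 4.13 CPM at week 12, with 16 to 67 reads. The groups did not overlap, but the level was low. The log2 fold change was 3.28 ± 0.47 (SE, adjusted p = 2.54e-07) and 3.42 with the trend removed. At week 8 the mean was 0.339 ± 0.378 CPM, and 1 of the 8 animals, at 1.20 CPM, lay within the range of week 12.

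ENSRNOG00000036942 fell most among these. It was at 1.73, 3.17 and 6.48 CPM at week 4 and at 0.361, 0.536 and 0.761 CPM at week 12. The log2 fold change was -2.65 ± 0.27 (SE, adjusted p = 1.79e-10) and -2.50 with the trend removed. The mean of week 8, 1.34 ± 0.580 CPM, lay between the weeks, and every animal of week 8, from 0.797 CPM, was above every animal of week 12.

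ENSRNOG00000033152 was at 0.905, 2.70 and 3.01 CPM at week 4, the lowest in animal 102, and at 0.180, 0.424 and 0.664 CPM at week 12. Its gene is short, with 546 bases, and its reads at week 12 were few, 3 to 14 per animal. The log2 fold change was -2.45 ± 0.26 (SE, adjusted p = 4.08e-10) and -1.93 with the trend removed, the largest shift by removal among the 4. At week 8 the mean of 2.18 ± 0.514 CPM was close to that of week 4.

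**Figure D4:**
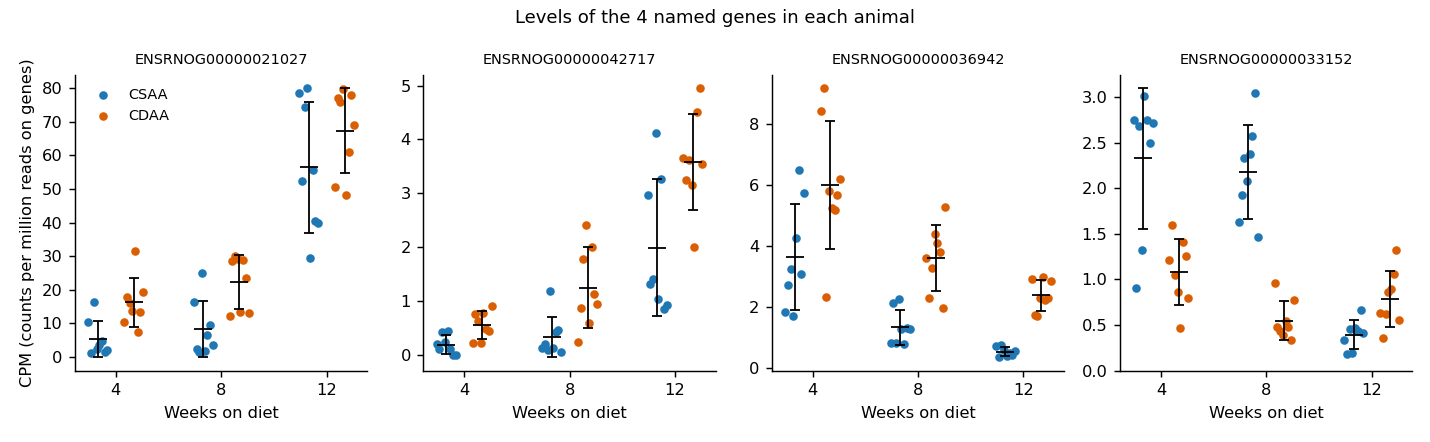
CPM of the 4 identifiers in each animal on CSAA (blue) and CDAA (orange) against weeks on diet, one point per animal, with bars at the mean and SD of 8 animals and a linear axis of its own in each panel. On CSAA the animals of weeks 4 and 12 do not overlap in any panel, as the choice of the genes required. At week 8 ENSRNOG00000033152 averages 2.18 CPM, near week 4.

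The same contrast was read in CDAA livers, which share no animals with the control livers. On CDAA 948 of all genes tested were higher (7.43%) and 399 lower (3.13%) at week 12 (10.6% in both directions). Of the 171 genes that rose on CSAA, 51 (29.8%) also rose on CDAA and 3 fell, and the median change on CDAA was 0.56. Of the 171 that fell, 57 (33.3%) also fell on CDAA and 1 rose, with a median of -0.85. Genes could enter the test through a CDAA group, so the level on CDAA had a part in the choice. With the filter on the control groups of weeks 4 and 12, 132 of the genes that rose and 157 of those that fell were still called. Their changes on CDAA were not counted apart. An adjusted p of 0.05 on CDAA, which 60.7% of all genes passed (26.3% higher, 34.4% lower), was missed by 66 of the genes that rose and 34 of those that fell. With the length trend removed, 45 of 162 rising genes (27.8%) and 16 of 80 falling genes (20%) changed in the same direction on CDAA, against 863 higher (6.77%) and 188 lower (1.47%) over all genes (8.24% in both directions). The medians over these 162 and 80 genes were 0.60 and -0.48. The length slope moved upward in both diets, by 0.61 on CSAA and from -0.22 to 0.77 on CDAA, and its part in the shared direction was not tested.

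**Figure D5:**
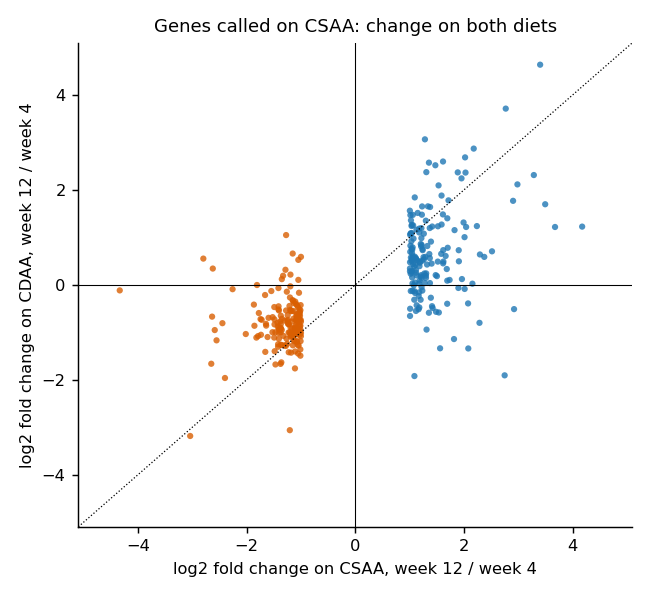
Log2 fold change of week 12 against week 4 on CDAA (vertical) against that on CSAA (horizontal) for the 342 genes that changed on CSAA, blue for the 171 that rose and orange for the 171 that fell, with a dotted line where both are equal. The medians on CDAA are 0.56 and -0.85, closer to 0 than the 1.26 and -1.20 on CSAA that chose the genes.

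The change differed between the diets in 643 genes (5.04%) by the test of the difference itself (adjusted p under 0.01 and absolute log2 difference of at least 1), 287 with a larger (2.25%) and 356 with a smaller (2.79%) value on CDAA. Of these 643 genes, 49 had risen on CSAA and 17 had fallen. The majority of smaller values was found in this fit alone. With the length trend removed the difference passed in 597 genes (4.68%), 322 larger (2.52%) and 275 smaller (2.16%), and 42 of them had risen and 20 had fallen on CSAA. Larger values were also in the majority in the other 6 alternatives, with 468 and 283 in DESeq2, 381 and 261 with RLE normalization and 918 and 96 with library size alone. Since these genes were chosen for a large change on CSAA, a smaller change on CDAA can follow from the choice alone. The 4 identifiers changed in the same direction on CDAA. ENSRNOG00000021027 started at a higher level there, with means of 16.2 CPM at week 4 and 67.4 at week 12, and rose by a log2 of 1.70 (adjusted p = 0.000348). ENSRNOG00000042717 went from 0.563 to 3.59 CPM (log2 fold change 2.31, adjusted p = 2.83e-06). ENSRNOG00000036942 went from 6.00 to 2.38 CPM (log2 fold change -1.66, adjusted p = 5.14e-08), above the CSAA means at both weeks. ENSRNOG00000033152 went from 1.08 to 0.789 CPM, with a log2 fold change of -0.81 (adjusted p = 0.00474) that was under the fold limit. It started at a lower level on CDAA than on CSAA, where its means were 2.33 and 0.395 CPM. Its difference between the diets was 1.64 (adjusted p = 0.000469), and that of the other 3 did not pass an adjusted p of 0.01, with values of -1.80 (0.0128), -0.97 (0.240) and 0.99 (0.0279) in the order named.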

How the data were processed

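Stranded mRNA libraries from the livers of 48 rats were read in single-end mode. Per the study's methods, the authors aligned reads to Rnor_6.0 with STAR and counted them per gene of Ensembl with featureCounts. The processing notes also name FastQC 0.11.2 and Cufflinks. Counts were deposited without normalization, and RPKM values were deposited by the authors with 3 decimals. Each column was assigned to an animal by its name, and 0 columns were left over.

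The count test was the quasi-likelihood test of edgeR 4.0.16 (R 4.3.3, TMM, 6 group coefficients, 48 animals), run on the 12756 of 32662 genes that reached 1 CPM in 5 or more animals of a group. Standard errors were derived from the log2 fold change and the F statistic (their ratio after taking the root of F). Genes were changed when the adjusted p was below 0.01 and the log2 fold change at least 1 in size. Gene length was the median ratio of CPM to RPKM, and its trend was removed through offsets of a loess curve (span 0.5) per animal. log2 CPM used TMM factors over the genes tested and a prior count of 2. The named identifiers had the largest changes, up to 2 in each direction, among genes changed with and without the trend whose CPM did not overlap. limma 3.58.1 (voom, and log2(RPKM + 0.1) or log2(RPKM + 1)), DESeq2 1.42.0, other normalizations, filters and samples were alternatives, and the count of non-overlapping genes without animal 908 was added after the data were seen. The tests were tested on simulated data of 12756 genes, where 200 had been given a log2 change of 1.5. Without a length trend in these data, edgeR found 194 of the 200, and 4 unchanged genes passed an adjusted p of 0.05. With a length trend left in the counts, 878 unchanged genes passed it, and 6 were also counted as changed. After removal of the trend these numbers were 9 and 0. Library measures were compared with exact permutation tests in Python 3.11.15.

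The comparison, the lists and the tests were chosen with earlier results of these data known. The tables pair no names with the identifiers, so gene lists, marker genes and sequences were not used here. The labels name no batch, so none was modelled. Per the study's methods, libraries were pooled for sequencing. The labels do not say which shared a pool, and a part of the pool in the differences between the weeks was not tested. At this depth, precision is set by the spread between animals and, for genes of few reads, by counting error.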

Additional observations from a re-analysis of the deposited data

Results flagged for a closer look

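Among 26 groups of 8 values searched for a single animal far from the other 7, 2 held one, where chance gives about 1.3 (1 in 20). Both were animal 908 of CSAA week 12, so they are not independent and their number is no test against chance. Its mean correlation with its group was 0.961, with 0.971 to 0.977 in the others, and its score on PC2 was 68.2, with -19.1 to 2.59 in the others. Animals of other groups also stood apart, and their correlations, given next, were not counted among the 2. In CSAA week 8, animal 504 had a mean correlation of 0.965, with 0.976 to 0.979 in the others. In CDAA week 4, animal 303 had one of 0.950, with 0.975 to 0.980 in the others.

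The change from week 4 to week 12 differed between the diets in 643 genes by the test of the difference. Of the 4 identifiers, ENSRNOG00000033152 was among them, with a difference of 1.64 on the log2 scale (edgeR, adjusted p = 0.000469). With the length trend removed it was 1.69 (adjusted p = 8.38e-05). At week 4 the mean of this gene was already lower on CDAA, at 1.08 CPM against 2.33 on CSAA. At week 12 it had 7 to 28 reads per animal on CDAA and 3 to 14 on CSAA.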

How the results depend on the processing

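No paired analysis was possible because the groups compared share no replicate numbers. In all 200 alternatives, most of which left out 1 animal, the 4 identifiers kept their direction and their side of the threshold. Their sizes were less stable. With log2(RPKM + 1), ENSRNOG00000042717 was at 1.00559, just past the limit of 1. ENSRNOG00000036942 and ENSRNOG00000033152 were at -1.33 and -1.57 there, and ENSRNOG00000021027 at 3.41. The balance of higher and lower genes was less stable. Of the alternatives of the other results, 247 stayed within 1.5 times the count or the spread between animals and 20 moved. The 342 changed genes became 147 with log2(RPKM + 1) and 10 in the test against a log2 fold change of 1. Those higher became 108 with the 16 animals alone, 106 with the 24 CSAA animals, 88 and 33 with log2(RPKM + 0.1) and log2(RPKM + 1), and 5 in the test against a log2 of 1. Those lower became 80 with the length trend removed and 5 in that test. Those past an adjusted p of 0.05 and higher became 1763 with the 16 animals alone, against 2018 lower, and library size alone gave 2161 and 2472, so that the excess of higher genes turned. Leaving out 1 animal gave 305 to 430 changed genes, 152 to 208 higher and 143 to 223 lower. With the trend removed it gave 216 to 283, 139 to 193 higher and 68 to 121 lower, the 121 without animal 908. The 643 genes that differed between diets became 1014 with library size alone, 918 higher and 96 lower. Those higher became 468 with DESeq2 and 474 without animals 303, 908 and 1102. The main counts of 287 higher and 356 lower turned to a majority of higher genes in all 7 alternatives, also with RLE (381 and 261), limma-voom (337 and 280), the 32 animals of both weeks (336 and 259) and the trend removed (322 and 275). On CDAA, the genes higher became 1688 with library size alone. The genes lower became 188 with the trend removed, 96 with library size alone and 264 without animals 303 and 1102. The cause of these moves was not tested.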
